A study of Mus musculus with 6 samples.

Results

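The complement genes of the liver and the 2 short pentraxin genes, Crp and Apcs, were examined in livers of mice fed the HFHC diet and given either the small molecule DDK or vehicle. The set holds 34 gene symbols, without the C1q genes of macrophages. It was listed by gene name, with earlier results of these data known. Of these symbols 33 were matched to a row among the 22173 genes listed, and C4a was not analysed here. By role the 33 genes are 9 of classical and lectin initiation (C1ra, C1rb, C1s1, C1s2, Masp1, Masp2, Mbl1, Mbl2, Fcna), 3 of the C2, C3 and C4 group (C2, C3, C4b), 3 of the alternative pathway (Cfb, Cfd, Cfp), 7 of the terminal pathway (Hc, C6, C7, C8a, C8b, C8g, C9), 7 regulators (C4bp, Cfi, Serping1, Cd55, Cd59a, Cd46, Clu), 2 anaphylatoxin receptors (C3ar1, C5ar1) and 2 pentraxins.

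The DDK group was 3 wild-type mice and the vehicle group 3 wild-type mice, all of them on the diet from 6 weeks of age for 16 weeks, with DDK or vehicle given in the final 4 weeks. Diet and compound are known here by these abbreviations, the series title calls DDK a limonoid, and the sources used here give no sex, strain or dose. There was no group on another diet, so every difference is between treated and untreated animals under the same feeding. The series asked how DDK acts in metabolic dysfunction-associated steatohepatitis, a disease of fatty liver with inflammation and scarring.

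Complement is a cascade of plasma proteins that marks and lyses targets. Antibody-bound C1 starts the classical pathway, carbohydrate-binding lectins with their MASP proteases start the lectin pathway, and factor B, factor D and properdin run the alternative pathway. All of these lead to cleavage of C3 and then of C5, after which C6, C7, C8 and C9 assemble the membrane attack complex. Hepatocytes make most of these proteins, macrophages make properdin, and several complement genes are induced in the acute phase, the hepatic response to inflammatory cytokines.

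Expression was measured by RNA-seq as FPKM, fragment counts scaled by gene length and library size, which sets genes on 1 scale per length. The fragments recovered from these values came to 26576291 to 30237490 in DDK libraries and 33963898 to 36105315 in vehicle libraries. The groups separated on the first principal component, which held 75% of the variance, with DDK livers at -36.4 to -23.6 and vehicle livers at 14.1 or above, vehicle replicate 1 having the lowest score of its group. The 8 hepatocyte markers were present in both groups, none at 0. By test 3 were higher in DDK livers (Alb, Ttr and Asgr1) and 1 was lower (Tat). They summed to 53848 to 57968 FPKM in DDK livers and 30807 to 41437 FPKM in vehicle livers. Most of this sum was Alb, at 33702 to 37838 FPKM in DDK livers and 17336 to 21423 FPKM in vehicle livers. The median log2 fold change of the 8 markers was 0.02, against -0.23 for all genes. Other cells' transcripts differed too. The 12 Kupffer cell and macrophage markers, none of them at 0, summed to 189 to 477 FPKM in DDK livers and 618 to 1027 in vehicle livers. Of these 7 were lower and 0 higher by test, and of 8 stellate cell and fibroblast markers 6 were lower, beside 30.3% of all genes. In whole liver, fewer cells of a type and less RNA per cell cannot be told apart.

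Most of the complement genes that changed were lower in DDK livers, by modest amounts. Their summed FPKM was 4518, 4184 and 4355 in DDK livers, against 5087, 5308 and 5265 in vehicle livers. It made up 0.675 to 0.739% of all FPKM in DDK livers and 0.922 to 1.06% in vehicle livers. All FPKM summed to 589341 to 620981 in DDK livers and 496503 to 551961 in vehicle livers, so these shares also reflect a larger total in DDK livers. Of 29 members that passed the filter on low values, 12 fell and 3 rose by limma at an adjusted p under 0.05, and 14 were not called. Of all 10681 genes tested 40.5% were called, 30.3% as lower and 10.2% as higher, while the members stood at 51.7%, 41.4% and 10.3%. The groups did not overlap for 18 of the 29 members and for 53.3% of all genes. The median log2 fold change was -0.44 over the tested members and -0.23 over all genes. The members that fell were C6, C9, Crp, Masp1, C5ar1, C4b, C4bp, C8a, Apcs, Clu, Cfb and Hc, and those that rose were C8g, Fcna and Mbl2. C5ar1 passed the filter through its vehicle values alone, so it had to differ to be among those tested.

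**Figure D1:**
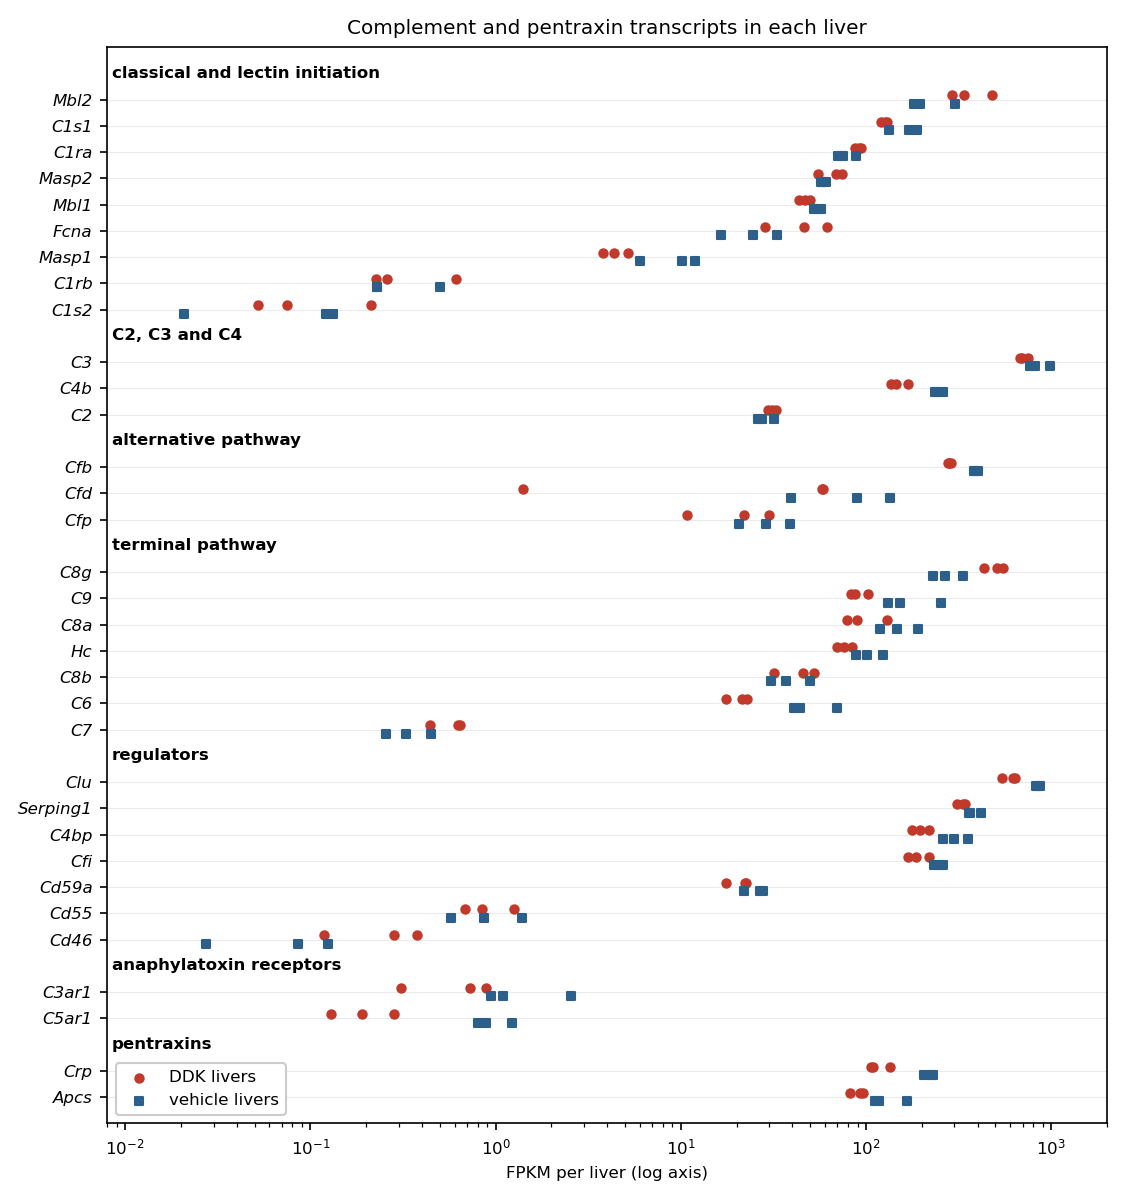
FPKM of each of the 33 genes in each liver on a log axis, with 3 DDK livers as circles and 3 vehicle livers as squares, grouped by role. C8g, Mbl2 and Fcna lie to the right in DDK livers, and C6, C9, Crp and C4b lie to the left with no overlap. Cfd has 1 DDK liver at 1.40 FPKM, far below the other 5.

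The count depends on the scaling of the libraries and on single livers. After median-ratio scaling, which moved the median of all genes to 0.00, 4 members fell (C6, Crp, Masp1, C5ar1) and 5 rose (C8g, Fcna, Mbl2, C1ra, C2), whereas after rescaling to TPM, with all genes at a median of -0.45, 19 fell and 1 rose. Without DDK replicate 2 or without vehicle replicate 3 only 8 members were called, 6 lower and 2 higher or 7 lower and 1 higher. C6, Crp, Masp1 and C8g were past the threshold under every alternative run, and all 15 called members kept their sign.

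**Figure D2:**
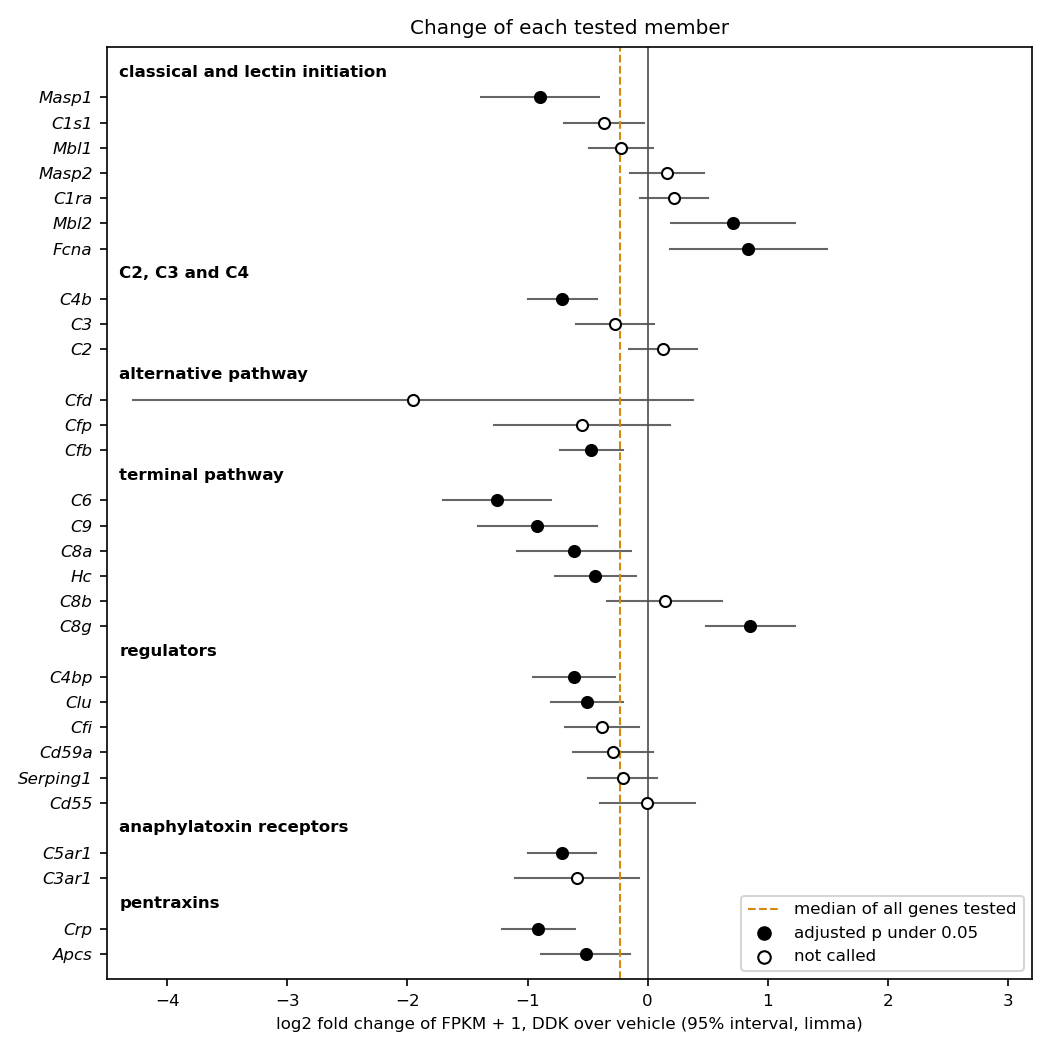
Log2 fold change of FPKM + 1, DDK over vehicle, for the 29 tested members by role, with 95% intervals from limma (3 livers per group). Filled points passed an adjusted p of 0.05, and the dashed line is the median of all 10681 genes, -0.23. The terminal genes span the widest range of called values, from C6 at -1.25 to C8g at 0.85.

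Terminal pathway genes changed in both directions. Of the 6 tested genes 4 fell and 1 rose (median log2 fold change -0.52, against -0.23 for all genes). These are 66.7% and 16.7%, beside 30.3% and 10.2% of all genes. C6, which binds activated C5 and begins assembly of the membrane attack complex, had 22.7, 21.4 and 17.5 FPKM in DDK livers, against 40.8, 70.03 and 43.8 FPKM in vehicle livers. Every DDK liver was below every vehicle liver, and the fold change of C6 was -1.25 ± 0.20 (SE) on the log2 scale (limma adjusted p = 0.00211). C9, the subunit that polymerises into the pore, had 103, 83.1 and 86.7 FPKM in DDK livers, against 131, 254 and 153 FPKM in vehicle livers. It fell by 0.92 ± 0.22 (adjusted p = 0.0106), without overlap, and vehicle replicate 2 stood highest. The C9 call was lost after median-ratio scaling (-0.61, adjusted p = 0.0583). C6 and C9 lie with C7 within a short stretch of chromosome 15 on GRCm38, C6 from 4727175 to 4814967, C7 from 4988762 to 5063740 and C9 from 6445327 to 6498751.

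Hc, the mouse gene of C5, had 83.9, 75.6 and 69.7 FPKM in DDK livers, against 88.1, 124 and 101 FPKM in vehicle livers. The groups were separate by a narrow gap, and the fold change was -0.44 ± 0.15 (limma adjusted p = 0.0429). The Hc call ended without any of DDK replicates 1 to 3, vehicle replicate 2 or vehicle replicate 3 (adjusted p = 0.0649 to 0.153), with no filter (0.0797) and after quantile normalization (0.0608). The fold change shrank to -0.13 after median-ratio scaling (adjusted p = 0.554) and to -0.12 after length correction (0.505). C7 was low, with 74, 67 and 54 fragments (0.639, 0.626 and 0.443 FPKM) in DDK livers and 37, 45 and 61 fragments (0.254, 0.327 and 0.446 FPKM) in vehicle livers, and did not pass the filter.

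Of the 3 chains of C8, C8g rose, C8a fell and C8b was not called. C8a and C8b encode the alpha and beta chains, which belong to the pore-forming family of C6, C7 and C9, and C8g encodes the gamma chain, a lipocalin that is bound to alpha by a disulfide bond. C8g had 508, 546 and 434 FPKM in DDK livers, against 333, 266 and 229 FPKM in vehicle livers. It rose by 0.85 ± 0.17 (limma adjusted p = 0.00441), with every DDK liver above every vehicle liver. C8a had 129, 89.7 and 79.4 FPKM in DDK livers, against 119, 190 and 147 FPKM in vehicle livers, so that DDK replicate 1 overlapped vehicle replicate 1. It fell by 0.61 ± 0.21 (adjusted p = 0.044), a call that ended without DDK replicate 2 or 3 or vehicle replicate 2 or 3 (adjusted p = 0.108 to 0.144), after median-ratio scaling (-0.30, 0.293) or quantile normalization (0.0543) and with no filter (0.118). C8b had 52.1, 45.6 and 31.9 FPKM in DDK livers and 30.6, 49.7 and 37.0 FPKM in vehicle livers, which overlapped (0.14, 95% interval -0.34 to 0.62, adjusted p = 0.618).

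Ratios within a liver are free of library scaling. C8a stood at 2.48, 1.97 and 2.49 times C8b in DDK livers and at 3.90, 3.82 and 3.98 times C8b in vehicle livers. The mean log2 ratio was 1.20 ± 0.19 in DDK livers and 1.96 ± 0.03 in vehicle livers (SD, n = 3 each), a difference of -0.76 with no overlap (exact two-sided permutation p = 0.1, the smallest that 3 against 3 allows, and 0.2 adjusted over 8 gene pairs). C8g stood at 3.92, 6.08 and 5.47 times C8a in DDK livers, against 2.79, 1.40 and 1.55 times in vehicle livers. C8g stood at 9.75, 12.0 and 13.6 times C8b in DDK livers, against 10.9, 5.36 and 6.19 times in vehicle livers, which overlapped. These ratios to C8g were picked after values were seen. C8g is the shortest of the 3, with a gene length of 1424 bases, against 3614 for C8a and 2239 for C8b. After a correction for gene length C8g was still 0.86 higher (limma adjusted p = 0.00432) and C8a stood at -0.32 (0.248).

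The RefSeq promoter windows, 250 bases before to 50 after the start on GRCm38.p6, are shown for C6 and C9 as the terminal genes with the largest decreases. Capitals mark the match to TTNNGNAAT, a word that holds the core of C/EBP binding sites, searched on both strands. C/EBP factors are known activators of acute-phase genes.
C6 (chr15:4726960-4727259, plus strand): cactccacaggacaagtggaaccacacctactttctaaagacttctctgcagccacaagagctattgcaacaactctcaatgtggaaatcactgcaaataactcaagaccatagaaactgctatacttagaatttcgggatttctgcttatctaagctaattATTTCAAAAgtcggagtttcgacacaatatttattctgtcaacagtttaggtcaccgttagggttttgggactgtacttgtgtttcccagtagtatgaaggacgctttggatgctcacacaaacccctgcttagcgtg
C9 (chr15:6445096-6445395, plus strand): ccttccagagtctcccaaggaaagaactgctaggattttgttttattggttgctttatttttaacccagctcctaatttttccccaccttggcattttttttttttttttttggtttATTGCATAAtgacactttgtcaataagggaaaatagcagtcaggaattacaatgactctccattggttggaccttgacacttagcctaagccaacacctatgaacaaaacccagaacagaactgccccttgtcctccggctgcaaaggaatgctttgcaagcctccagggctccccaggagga
The word was found in windows of 9 of the 26 members with a window (34.6%) and of 13.1% of all 27025 genes. Besides C6 and C9 these were Crp and Hc, which fell, and Fcna, which rose. The rest were C3, C1ra and C1s1, which were not called, and C7, which was not tested. C2, C4a, C4b, Cfb, Cfi, Clu, Masp1 and Serping1 had no window and were not searched.

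Of 7 tested initiation genes 2 rose (Fcna, Mbl2) and 1 fell (Masp1). The share called, 42.9%, was close to the 40.5% of all genes. The median log2 fold change of the 7 was 0.16, against -0.23 for all genes. Mbl2 encodes mannose-binding lectin C, a plasma lectin made by hepatocytes. It had 340, 290 and 480 FPKM in DDK livers, against 302, 196 and 182 FPKM in vehicle livers. Vehicle replicate 1 lay among the DDK livers, the other vehicle livers lay below them, and the fold change was 0.71 ± 0.23 (limma adjusted p = 0.0343). Mbl1, which encodes mannose-binding lectin A, had 50.1, 46.7 and 43.6 FPKM in DDK livers, against 52.4, 56.9 and 54.7 FPKM in vehicle livers. These did not overlap, but the fold change of -0.22 (95% interval -0.48 to 0.04) was not called (adjusted p = 0.155) and turned to 0.08 after median-ratio scaling and 0.10 after length correction.

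The Mbl1 to Mbl2 ratio was 0.147, 0.161 and 0.0908 in DDK livers, against 0.173, 0.290 and 0.30 in vehicle livers. The gene length behind the Mbl1 FPKM was 5964 bases, against 1563 exon bases in GENCODE M21. For Mbl2 these were 1211 and 1089. The level of the ratio and the length-corrected values rest on the lengths used, which are the same in every liver. The difference in mean log2 ratio was -0.94 without overlap (-2.95 ± 0.44 in DDK livers and -2.02 ± 0.44 in vehicle livers, SD, n = 3 each, exact permutation p = 0.1, adjusted p = 0.2). The windows of the pair are shown because the lectins are paralogs of which Mbl2 was called and Mbl1 was not. After length correction their log2 fold changes were 0.61 for Mbl2 and 0.10 for Mbl1. Capitals mark the longest run of bases that both share on the strand of the gene, 13 bases, which begins 23 bases before the start of Mbl1 and 57 before that of Mbl2.
Mbl1 (chr14:41151206-41151505, plus strand): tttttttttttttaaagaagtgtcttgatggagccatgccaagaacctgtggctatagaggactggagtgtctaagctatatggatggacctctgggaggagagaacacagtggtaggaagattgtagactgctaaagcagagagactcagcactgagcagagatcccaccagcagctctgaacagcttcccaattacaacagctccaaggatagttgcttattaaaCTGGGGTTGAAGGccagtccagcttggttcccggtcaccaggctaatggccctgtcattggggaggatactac
Mbl2 (chr19:30232678-30232977, plus strand): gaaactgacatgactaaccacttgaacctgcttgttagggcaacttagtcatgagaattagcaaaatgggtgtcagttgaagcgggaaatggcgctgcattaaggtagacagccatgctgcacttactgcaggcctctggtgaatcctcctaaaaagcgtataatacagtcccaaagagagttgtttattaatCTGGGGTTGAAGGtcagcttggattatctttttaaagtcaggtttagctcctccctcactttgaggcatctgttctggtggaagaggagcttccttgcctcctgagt
Neither window held TTNNGNAAT or the STAT word TTCNNNGAA, which were in windows of 13.1% and 9.55% of all genes.

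Fcna encodes ficolin A, another lectin that works with MASP proteases and is known in mouse from macrophages as well as from liver. It had 61.5, 46.2 and 28.4 FPKM in DDK livers, against 33.1, 16.4 and 24.5 FPKM in vehicle livers, overlapping at DDK replicate 3 and vehicle replicate 1. Its fold change was 0.84 ± 0.29 (limma adjusted p = 0.0444). It was higher while the macrophage markers as a list were lower, the Kupffer cell gene Clec4f standing at 43.6, 27.7 and 15.7 FPKM in DDK livers and 33.6, 29.2 and 41.3 FPKM in vehicle livers. Leaving out 1 liver ended the calls of Mbl2 (without DDK replicate 1 or 3 or vehicle replicate 2 or 3, adjusted p = 0.0656 to 0.133) and of Fcna (without DDK replicate 1 or 2 or vehicle replicate 2 or 3, adjusted p = 0.104 to 0.149). Both also missed the threshold after rescaling to TPM (0.0881 for Mbl2 and 0.0792 for Fcna), after length correction (0.0542 for Mbl2 and 0.0535 for Fcna) and with no filter (0.105 for Mbl2 and 0.135 for Fcna), and Mbl2 after quantile normalization (0.122).

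Of the lectin pathway proteases Masp1 fell and Masp2 was not called. Masp1, the protease that activates Masp2, had 5.17, 4.36 and 3.80 FPKM in DDK livers, against 6.06, 10.2 and 11.9 FPKM in vehicle livers. It fell by 0.89 ± 0.22 without overlap (limma adjusted p = 0.0115), and vehicle replicate 1 was nearest to the DDK livers. Masp2, which cleaves C4 and C2, had 68.9, 74.2 and 55.2 FPKM in DDK livers and 57.6, 61.2 and 57.05 FPKM in vehicle livers (0.16, 95% interval -0.15 to 0.47, adjusted p = 0.366). Masp2 passed as higher after length correction (0.45, limma adjusted p = 0.0399). Its value is uncertain, since 56.3% of its exon bases overlap the opposite-strand gene Tardbp in GENCODE M21 and the library kit does not mark strand. The Masp1 to Masp2 ratio was 0.0587 to 0.0751 in DDK livers and 0.105 to 0.209 in vehicle livers, again without overlap (difference in mean log2 ratio -1.20, exact permutation p = 0.1, adjusted p = 0.2).

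The C1 protease genes lie side by side on chromosome 6, and 1 copy of each kind carried nearly all of the signal. C1ra had 91.6, 87.2 and 93.5 FPKM in DDK livers and 75.3, 88.0 and 71.0 FPKM in vehicle livers (0.22, 95% interval -0.06 to 0.50, limma adjusted p = 0.183). C1ra passed as higher after median-ratio scaling (0.53, adjusted p = 0.0243) and length correction (0.47, 0.0167). C1s1 had 127, 121 and 130 FPKM in DDK livers, against 133, 189 and 170 FPKM in vehicle livers (-0.36 ± 0.15, adjusted p = 0.0746). The C1s1 values did not overlap, and the gene passed without vehicle replicate 1 (adjusted p = 0.00706) and after rescaling to TPM (0.0144). In GENCODE M21 19.3% of the C1s1 exon bases overlap the opposite-strand gene Gm16567, and the library kit does not mark strand. The copies C1rb and C1s2 had 13 to 38 and 2 to 15 fragments per library and were not tested. Their ratios to C1ra and C1s1 overlapped between the groups, and how fragments that match both copies were counted was not given.

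Of the C2, C3 and C4 group, C4b fell and C3 and C2 were not called. C3, cleaved by every pathway, was with Clu among the most abundant members. It had 746, 675 and 693 FPKM in DDK livers, against 817, 767 and 983 FPKM in vehicle livers. The groups did not overlap, but the fold change of -0.27 (95% interval -0.60 to 0.05) was not called (limma adjusted p = 0.151) and depended on scaling. It was called lower after quantile normalization (-0.63, adjusted p = 0.0112) and rescaling to TPM (-0.51, 0.015), and stood at 0.04 after median-ratio scaling. C4b, whose product forms the classical and lectin C3 convertase with C2, had 145, 168 and 137 FPKM in DDK livers, against 238, 236 and 262 FPKM in vehicle livers. It fell by 0.71 ± 0.13 (adjusted p = 0.00347), with every DDK liver below every vehicle liver. That call missed the threshold after median-ratio scaling (-0.40, adjusted p = 0.0825). C4b and C4a are near-identical copies on chromosome 17, and how fragments that match both were assigned was not given. C2 had 32.6, 29.7 and 31.0 FPKM in DDK livers and 26.1, 27.3 and 32.0 FPKM in vehicle livers (0.13, 95% interval -0.16 to 0.41, adjusted p = 0.447). C2 passed as higher after median-ratio scaling (0.43, adjusted p = 0.0252) and length correction (0.36, 0.0281).

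Of the 3 alternative pathway genes, Cfb fell and Cfd and Cfp were not called. Cfb encodes factor B, the protease of the alternative C3 convertase. It had 289, 277 and 281 FPKM in DDK livers, against 385, 390 and 400.5 FPKM in vehicle livers. The livers of a group lay close together and the groups lay apart, at -0.47 ± 0.12 (limma adjusted p = 0.0123). The call ended when DDK replicate 2 (limma adjusted p = 0.0597) or vehicle replicate 3 (0.0517) was left out, and under median-ratio scaling (-0.16, adjusted p = 0.437) or length correction (0.098). Cfb and C2, its classical counterpart, are neighbours on chromosome 17 (34856374 to 34862518 and 34862604 to 34898265 on GRCm38). On the same strand, the annotated gene Gm20547 shares 81.6% of the exon bases of Cfb, and 59.2% of those of C2 overlap it. How fragments in these bases were assigned was not given, so both levels and their ratio are uncertain. Cfb stood at 8.87, 9.33 and 9.09 times C2 in DDK livers, against 14.7, 14.3 and 12.5 times in vehicle livers, a ratio that does not depend on scaling (difference in mean log2 ratio -0.60, exact permutation p = 0.1, adjusted p = 0.2).

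Cfd encodes factor D, the adipsin of fat tissue, which cleaves factor B. It had 58.7, 57.6 and 1.40 FPKM in DDK livers and 39.2, 89.0 and 134 FPKM in vehicle livers. DDK replicate 3, at 39 fragments, stood alone, and the fold change of -1.95 ± 1.04 was not called (limma adjusted p = 0.154). Without that liver it was -0.41. Adipocyte markers were near 0 throughout, with the 4 genes summing to 0 to 0.146 FPKM in DDK livers and 0 to 0.157 in vehicle livers, and Lep listed at 0 in all 6 libraries. Cfp, properdin of myeloid cells, which stabilises the alternative convertase, had 29.8, 21.9 and 10.8 FPKM in DDK livers and 29.0, 20.7 and 38.8 FPKM in vehicle livers (-0.54 ± 0.33, adjusted p = 0.202). DDK replicate 3 was lowest for Cfp and also had the lowest macrophage marker sum, 189 FPKM, and the lowest neutrophil marker sum, 2.38 FPKM, against 8.32 and 6.52 FPKM in the other DDK livers and 10.6 to 13.7 FPKM in vehicle livers. The part of these cells in the values was not tested.

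**Figure D3:**
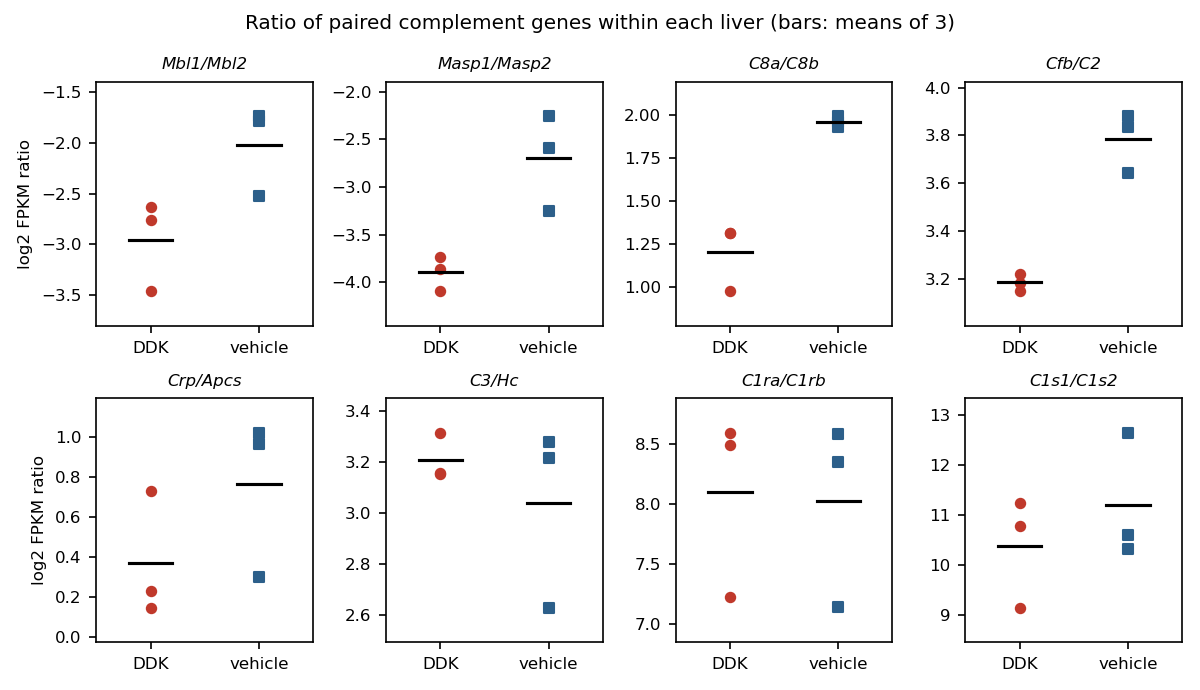
Log2 ratio of the FPKM of paired complement genes within each liver, DDK on the left and vehicle on the right of each panel, with bars at the means of 3 livers. The groups do not overlap for Mbl1/Mbl2, Masp1/Masp2, C8a/C8b and Cfb/C2, all lower in DDK livers, and overlap for the other 4 pairs.

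Of 6 tested regulators 2 fell and 0 rose, a share close to the 30.3% of all genes that fell, with a median log2 fold change of -0.33, against -0.23 for all genes. Clu encodes clusterin, a chaperone that blocks insertion of the terminal complex into membranes. It had 623, 541 and 636 FPKM in DDK livers, against 829, 852 and 869 FPKM in vehicle livers, and fell by 0.51 ± 0.13 without overlap (limma adjusted p = 0.015). C4bp, the plasma cofactor for C4b breakdown, had 197, 176 and 220 FPKM in DDK livers, against 259, 354 and 300 FPKM in vehicle livers, and fell by 0.61 ± 0.15 without overlap (adjusted p = 0.012). Median-ratio scaling ended both calls (limma adjusted p = 0.386 for Clu and 0.171 for C4bp), as did leaving out DDK replicate 2 (0.0856 for Clu and 0.0621 for C4bp). Without vehicle replicate 3 the Clu call was lost as well (0.0576).

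Cfi, the protease that inactivates C3b and C4b, had 185, 168 and 220 FPKM in DDK livers, against 249, 259 and 234 FPKM in vehicle livers, without overlap. It lay just short of the threshold (-0.38 ± 0.14, limma adjusted p = 0.0502) and passed without DDK replicate 3 (0.0258). Cfi was called lower in 6 of 17 alternatives, among them quantile normalization (0.0236), rescaling to TPM (0.00675) and voom (0.0485). After median-ratio scaling Cfi stood at -0.07 (limma adjusted p = 0.767). Serping1, the C1 inhibitor, had 341, 312 and 334 FPKM in DDK livers, against 418, 365 and 359 FPKM in vehicle livers (-0.21, 95% interval -0.49 to 0.08, adjusted p = 0.209). Serping1 was called lower after quantile normalization (-0.51, 0.00876) and rescaling to TPM (-0.45, 0.0111), and stood at 0.10 after median-ratio scaling. The membrane regulators Cd59a and Cd55 overlapped between groups. Cd59a ranged from 17.5 to 22.4 FPKM in DDK livers and from 22.0 to 27.8 in vehicle livers (-0.29 ± 0.15, adjusted p = 0.14). Cd59a passed without vehicle replicate 1 (0.0451) and after rescaling to TPM (0.0233). Cd55 ranged from 0.680 to 1.25 FPKM in DDK livers and from 0.575 to 1.39 in vehicle livers (0.00, 95% interval -0.40 to 0.39). The gene length behind the Cd55 FPKM was 12210 bases, against 2533 exon bases in GENCODE M21, so its level rests on the length used. Cd46, which in mouse is known mainly from sperm, had 33, 23 and 11 fragments in DDK livers and 3, 9 and 13 in vehicle livers and did not pass the filter.

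The anaphylatoxin receptor genes were low in both groups. C5ar1, the C5a receptor of myeloid cells, had 0.284, 0.190 and 0.129 FPKM in DDK livers, from 21, 13 and 10 fragments, against 0.808, 1.23 and 0.882 FPKM from 75, 108 and 77 fragments in vehicle livers. Mean FPKM was thus 4.84 times as high in vehicle livers, and the value of -0.71 ± 0.13 on the log2(FPKM + 1) scale understates it (limma adjusted p = 0.00311, for a gene that passed the filter through vehicle livers alone). C3ar1 had 0.728, 0.884 and 0.308 FPKM in DDK livers, against 1.10, 0.946 and 2.54 FPKM in vehicle livers (-0.59 ± 0.23, adjusted p = 0.0651). It did not overlap and passed without vehicle replicate 2 (0.0445) and after rescaling to TPM (0.0293). Of the 12 Kupffer cell and macrophage markers 7 were lower by test. Clec4f (-0.35), Timd4 (-0.01), Marco (-0.32), Vsig4 (-0.61) and C1qa (-0.48) were not called. The part of these cells in the receptor values was not tested.

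Both pentraxins fell. Pentraxins are ring-shaped plasma proteins that bind microbes and damaged cells and can engage C1q. In mouse, serum amyloid P, encoded by Apcs, is the main acute-phase pentraxin, while Crp responds weakly. Crp had 107, 109 and 135 FPKM in DDK livers, against 205, 229 and 226 FPKM in vehicle livers. Every DDK liver was far below every vehicle liver, at -0.91 ± 0.14 (limma adjusted p = 0.00168, the smallest among the members). Apcs had 96.1, 93.1 and 81.7 FPKM in DDK livers, against 166, 117 and 111 FPKM in vehicle livers, without overlap and with vehicle replicate 1 highest. It fell by 0.52 ± 0.17 (adjusted p = 0.0322), a call that ended without any of DDK replicates 1 to 3 (0.0634 to 0.0854) and after median-ratio scaling (-0.21, adjusted p = 0.478).

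The Crp to Apcs ratio overlapped between groups, from 1.11 to 1.66 in DDK livers and from 1.23 to 2.03 in vehicle livers (exact permutation p = 0.2, adjusted p = 0.32). The genes lie on chromosome 1, Crp starting at 172698055 and Apcs ending at 172895041 on GRCm38. Their promoter windows are shown because both fell, with the word TTNNGNAAT in capitals in Crp and the STAT word TTCNNNGAA in capitals in Apcs.
Crp (chr1:172697806-172698105, plus strand): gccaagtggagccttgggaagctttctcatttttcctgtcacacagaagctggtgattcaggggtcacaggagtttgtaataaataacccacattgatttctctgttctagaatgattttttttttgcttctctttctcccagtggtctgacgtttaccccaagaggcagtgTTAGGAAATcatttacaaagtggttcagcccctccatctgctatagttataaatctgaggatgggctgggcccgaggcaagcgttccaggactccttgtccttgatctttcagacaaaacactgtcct
Apcs (chr1:172895005-172895304, minus strand): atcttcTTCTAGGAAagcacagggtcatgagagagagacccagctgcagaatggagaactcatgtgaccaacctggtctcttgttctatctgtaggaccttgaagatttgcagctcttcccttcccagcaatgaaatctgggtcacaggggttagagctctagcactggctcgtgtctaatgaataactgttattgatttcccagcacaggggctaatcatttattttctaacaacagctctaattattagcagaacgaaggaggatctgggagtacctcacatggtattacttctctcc
The STAT word was in windows of 6 of the 26 members with a window (23.1%) and of 9.55% of all genes, and besides Apcs these were C8a, which fell, Masp2 and C1ra, which were not called, and C1rb and C7, which were not tested. Words of the factors NF-kB, HNF4 and HNF1 were searched in the same windows. The NF-kB and HNF4 words were found in 0 of the 26 members, and in 0.466% and 0.555% of all genes. The HNF1 word was found in 1 of the 26 members, Hc (3.85%), and in 0.074% of all genes. A match describes the letters and was not tested as a binding site.

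**Figure D4:**
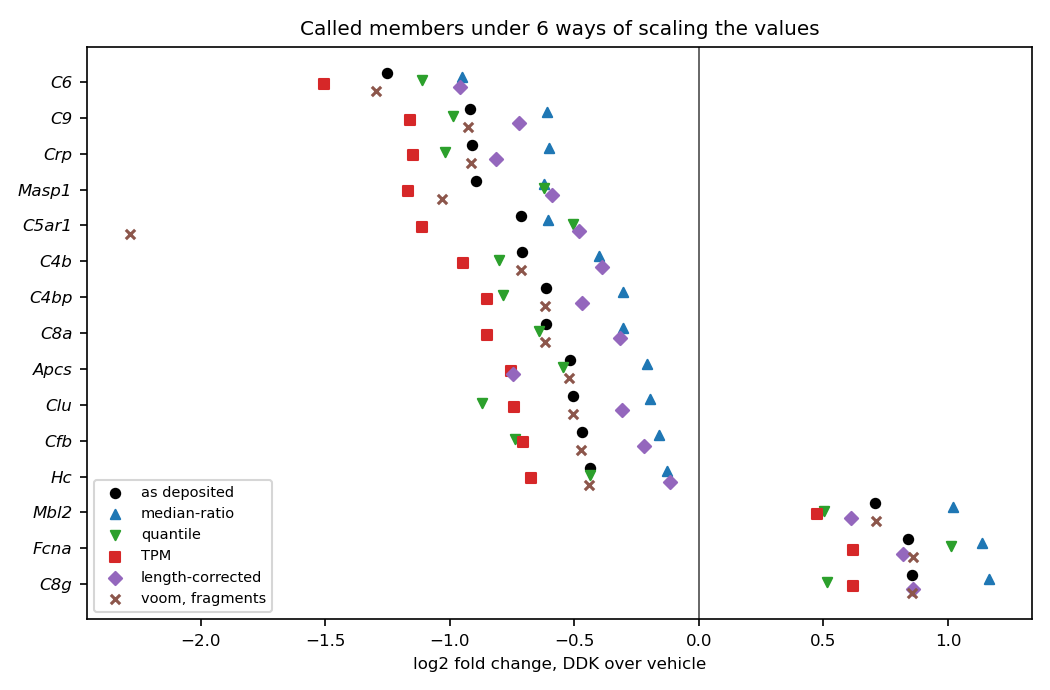
Log2 fold change of the 15 called members, DDK over vehicle, under 6 ways of scaling or fitting the values. Each gene keeps its side of 0. C6 lies between -1.50 and -0.95 and Crp between -1.15 and -0.60 over these scalings.

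Among other complement genes taken from a list, 11 of 20 tested fell and 2 rose, beside 30.3% and 10.2% of all genes. Their median log2 fold change was -0.46, against -0.23 for all genes. The C1q genes C1qb (-1.41) and C1qc (-1.55) and the integrin gene Itgb2 (-1.31), known from macrophages, fell, and C1qb and C1qc are also among the macrophage markers. Of the others, C1rl (-0.65), the collectins Colec10 (-0.60) and Colec11 (-0.60), Cr1l (-0.55), Cpb2 (-0.43), Cpn1 (-0.42) and Cpn2 (-0.40) fell. Cfhr2 and Cfhr3 rose. Cfhr2 had 332, 310 and 340 FPKM in DDK livers, against 198, 252 and 198 FPKM in vehicle livers (0.61 ± 0.14, limma adjusted p = 0.00855). Cfhr3 rose by 0.60 ± 0.13. Vtn, vitronectin, stood at 1456, 1480 and 1464 FPKM in DDK livers, against 1303, 1021 and 995 FPKM in vehicle livers (0.42 ± 0.15, limma adjusted p = 0.0521).

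Of 16 regulators of hepatic acute-phase transcription 6 fell and 0 rose, beside 30.3% of all genes that fell, and their median log2 fold change was -0.29, against -0.23 for all genes. Those that fell included the interleukin-6 receptor gene Il6ra (-1.26), its signalling partner Il6st (-0.92), Nfkb1 (-1.02), Cebpa (-0.73) and Stat3 (-0.46). Cebpb and Cebpd were not called. Stat3, the factor that transmits interleukin-6 signals, had 13.0, 11.9 and 13.5 FPKM in DDK livers, against 17.5, 17.3 and 19.1 FPKM in vehicle livers (limma adjusted p = 0.0166). The Stat3 call held in 11 of 17 alternatives. It ended after median-ratio scaling (-0.17, limma adjusted p = 0.310), quantile normalization (0.142) and length correction (0.322). Socs3 stood at 0.55 and was not called (limma adjusted p = 0.113).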

How the data were processed

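Total RNA of 6 snap-frozen livers was made into libraries with the NEBNext Ultra RNA kit, per the labels' protocols. The values are the FPKM deposited by the authors, 1 column per liver, on GRCm38 (mm10) per the submitters' processing notes. No aligner, counting method or annotation is given in the sources used here. Whole gene lengths and library totals that turn the FPKM into fragments were recovered, and 100% of values above 0 came out whole within 0.01 of a fragment, so 3 fragments of a 2000 bp gene equal 0.0415 to 0.0564 FPKM (counting error only). Genes with at least 0.5 FPKM in at least 3 libraries were tested on log2(FPKM + 1) with limma 3.58.1 in R 4.3.3 (variance trend, no block, Benjamini-Hochberg over all genes tested, threshold 0.05), and the test was checked on simulated data. Fold changes carry standard errors (SE) and understate changes of low genes. Paired-gene ratios used exact permutation over livers, and the ninth planned pair, C4a and C4b, was not run. The members and lists were chosen with earlier results of these data known. All members are accounted for, and genes of the other lists are named where called, except some that are not reported here. Vtn, the overlapping genes Gm20547, Tardbp and Gm16567 and the C8g ratios were chosen after values were seen. Alternatives were pseudocounts, filters, scalings, the block, no trend and each liver left out, with length correction (lowess span 0.3) and voom on fragments added after the data were seen. Promoter windows are RefSeq's on GRCm38.p6, positions GENCODE M21's. Replicate numbers did not pair the mice.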

Additional observations from a re-analysis of the deposited data

How the results depend on the processing

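All 15 called members kept their direction in every alternative run. Against 15 members called (3 higher and 12 lower), median-ratio scaling gave 9 (5 higher and 4 lower), TPM 20 (1 higher and 19 lower), no filter 10 (1 higher), length correction 13 (4 higher and 9 lower), quantile normalization 15 (2 higher and 13 lower) and voom 16. The 4 higher under length correction were C8g, C2, C1ra and Masp2, while Fcna and Mbl2 missed the threshold there. With 1 liver left out the calls ranged from 8 to 16, 1 to 3 of them higher and 6 to 13 lower, and those over all genes from 2345 (without DDK replicate 2) to 5478 (without vehicle replicate 1), against 4327. It was 2780 without DDK replicate 1, 2774 without vehicle replicate 2 and 2350 without vehicle replicate 3. Same-numbered livers did not deviate together (correlations 0.141, -0.146 and 0.0558), and the replicate block gave 15 members, 3 higher and 12 lower, and 4134 genes. Uncalled values changed sign for C2 (-0.11), C8b (-0.092), C1ra (-0.014) and Masp2 (-0.073) under TPM. They did so under median-ratio scaling for C3 (0.037), Mbl1 (0.084), Serping1 (0.10), Cd55 (0.15) and Cd59a (0.0096), and under length correction for C3 (0.046), Mbl1 (0.10) and Cd55 (0.26). Cd55 also did under quantile normalization (0.22), voom (0.012) and pseudocounts of 0.1 (0.015) and 0.5 (0.0030). Leaving out 1 liver moved C8b from -0.018 to 0.34, Cd55 from -0.14 to 0.16, and the DDK minus vehicle log2 ratio from -0.36 to 0.52 for C1ra/C1rb and from -0.038 to 0.29 for C3/Hc. The cause was not tested. The planned pair C4a/C4b was not run. Depth limits Cd46, C1rb, C1s2 and C7, which did not pass the filter.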
